A study of Mus musculus with 8 samples.

Results

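The genes described here are 42 mouse genes listed for their part in NF-kB signalling and inflammatory cytokine production: the transcription factor's subunits, its inhibitors and feedback regulators, receptors and adaptors, inflammasome components, cytokines and their antagonists, chemokines, and surface, survival and other induced genes. Of the 42, 40 had a row among the 18193 genes that the arrays named, and Nfkb1 and Ripk2 were not analysed here. A gene was represented by the probe set with a single symbol and the highest mean log2 intensity, which was the sole candidate for 24 of the 40. NF-kB factors are kept inactive in resting cells by IkB proteins. Receptors for tumour necrosis factor, the interleukin-1 family and microbial products trigger loss of the IkB proteins, after which NF-kB enters the nucleus and switches on cytokines, adhesion molecules, survival genes and its own inhibitors. In myeloid cells this pathway drives inflammation and primes the NLRP3 inflammasome, whose caspase matures interleukin-1 beta and interleukin-18.

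All samples were RNA of murine leukemic cells transformed by MLL-AF9, a leukemia fusion protein that recruits the histone methyltransferase DOT1L, hybridised to 1 Affymetrix array each. The 8 arrays formed 4 groups of 2: cells labelled shSirt1 given 3 µM EPZ4777, a DOT1L inhibitor, for 21 days; cells labelled shSirt1 in DMSO; cells with a luciferase hairpin (shLUC) given 3 µM EPZ4777 for 6 days; and shLUC cells in DMSO. Every group grew in medium with 15% serum and added SCF (20 ng/ml), IL-3 and IL-6 (10 ng/ml each). Codes in the titles (A1 and A5 for shSirt1, A4 and D11 for shLUC) each joined an EPZ4777 array to a DMSO array, and values of a pair of arrays are given below in that order of codes. The sources used here do not say what a code stands for, whether arrays of a group were separate cultures, or how long the DMSO cells were kept, so p-values measure only the spread between these arrays, which may be technical.

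Sirt1, the target of the hairpin, had a log2 intensity of 8.85 and 9.73 on the EPZ4777 arrays and 8.70 and 9.54 on the DMSO arrays of cells labelled shSirt1, against 9.44 and 9.83 (EPZ4777) and 9.46 and 9.58 (DMSO) in shLUC cells. It was low in code A1 and not in A5, which is why the label and not a knockdown names these cells. Ptprc (CD45) lay between 11.54 and 12.63 on all arrays and Mpo (myeloperoxidase) between 12.75 and 13.56. Of the progenitor markers, Kit lay between 8.58 and 9.71. Cd34 lay between 2.43 and 3.39, below the lower quartile of all probe sets (3.78) on all arrays. Of the 12 leukemic myeloid progenitor markers these belong to, 1 rose and 1 fell in the mean of EPZ4777 against DMSO over both arms. Of all genes, 4.88% rose and 6.00% fell there. Itgam, the myeloid integrin CD11b, rose by 1.39 ± 0.31 (limma adjusted p = 0.0370), and Meis1, a homeobox gene active in MLL-fusion leukemia, fell by 3.32 on the log2 scale (SE 0.31, limma adjusted p = 0.00713). The DMSO array of A1 stood apart in some stroma genes, with Col3a1 at 6.92 where the other 7 arrays lay between 2.84 and 3.13. Dcn was at 7.27 there (4.48 to 4.79 on the others) and Col1a2 at 6.74 (5.21 to 5.39). Col1a1 did not stand apart, at 4.20 (3.91 to 4.47). Array medians lay between 5.21 and 5.27. In RNA of whole cultures, fewer cells of a type and less RNA per cell cannot be told apart.

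The first question was how the genes differed between EPZ4777 and DMSO, averaged over both hairpin arms (4 arrays against 4, mixing 21 and 6 days). Of the 40 genes, 13 passed a limma adjusted p under 0.05, beside 10.9% of all genes tested. Higher in EPZ4777 were 9, beside 4.88% of all genes: the IkB inhibitor Nfkbia, the pseudokinase Irak3, both TNF receptors (Tnfrsf1a and Tnfrsf1b), the decoy receptor Il1r2, the receptor antagonist Il1rn, the cytokine Il1b, and the induced genes Ier3 and Tnfaip2. Lower were 4, beside 6.00% of all genes: the inflammasome sensor Nlrp3, the cytokine Osm, the adhesion molecule Icam1 and the mitochondrial superoxide dismutase Sod2. The median log2 difference over the 40 was 0.12, against 0.0052 over all genes. With the code as a block, a fit that compares arrays within a code, 18 of the 40 passed, beside 16.1% of all genes. The 5 added were Nfkbiz, Tnfaip3, Tnf and Il18 on the higher side and Casp1 on the lower side.

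The difference within a code had the same sign in all 4 codes for 21 of the 40 genes. It was positive throughout for 16, beside 18.7% of all genes, and negative throughout for 5 (Nfkbib, Nlrp3, Casp1, Icam1 and Sod2), beside 19.6% of all genes. Over the alternative fits the mean difference lay between 1.14 and 1.46 for Nfkbia and between 2.55 and 3.48 for Il1r2. The count of 13 passing genes fell when some single arrays were left out, in fits with 1 array left in a group. The share of all genes passing in those fits is not given here, so a loss of calls shared by all genes cannot be told apart from one of the 13. Leaving out both A1 arrays gave 8, and leaving out both A5 arrays gave 2, Il1r2 and Icam1.

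**Figure D1:**
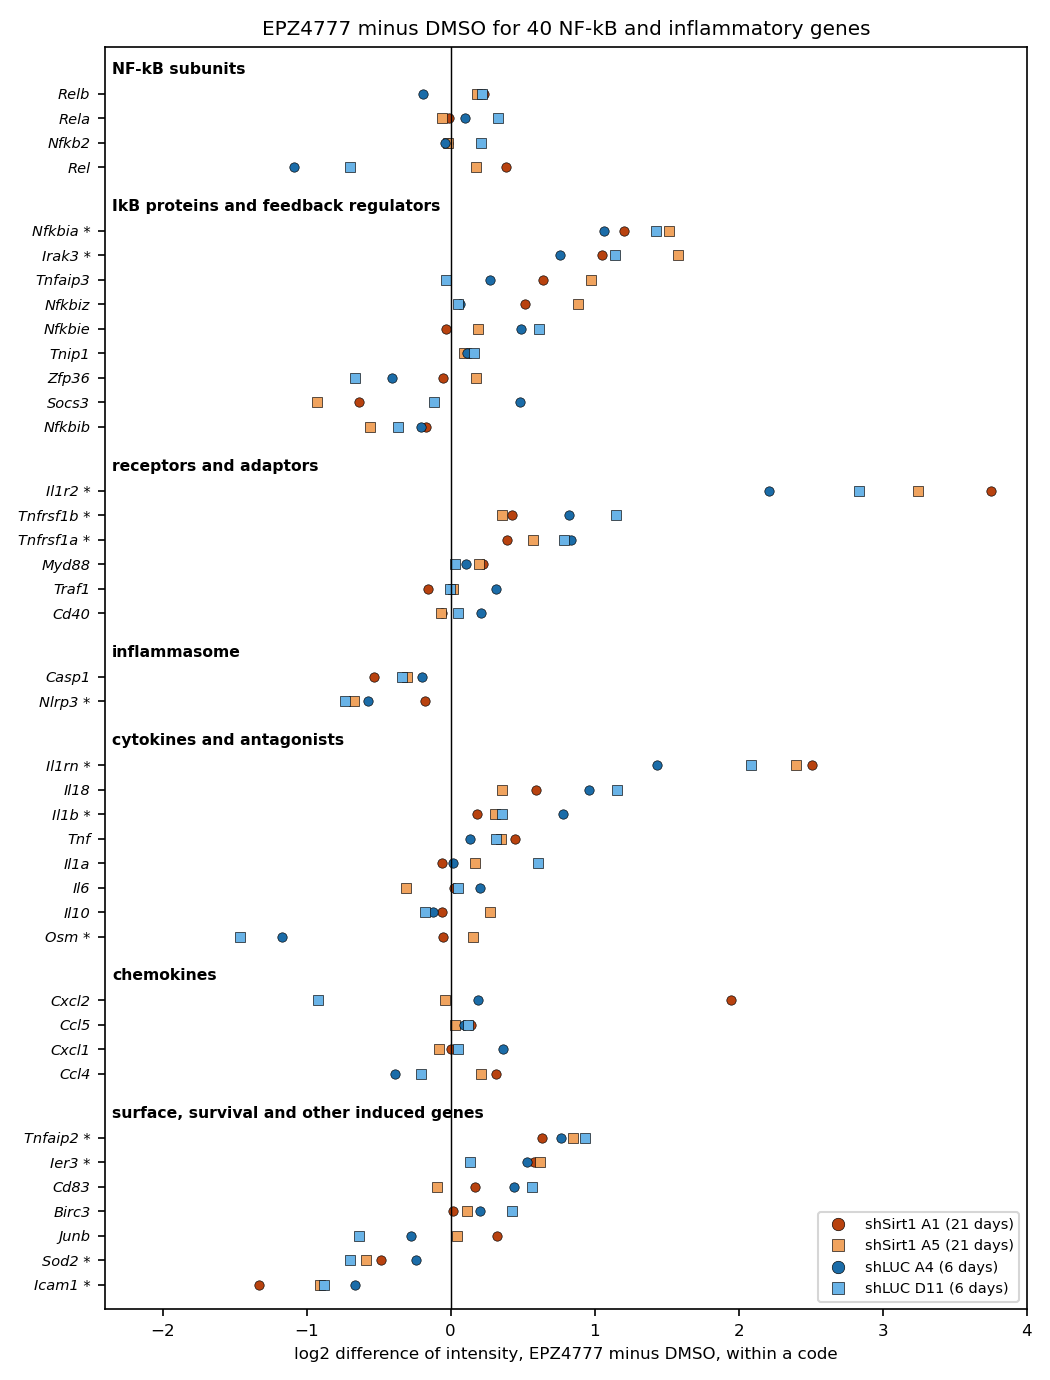
Each row is 1 of the 40 genes, grouped by role, and each point is the log2 difference of intensity, EPZ4777 minus DMSO, within 1 code (red and orange for codes A1 and A5 labelled shSirt1 at 21 days, blue for shLUC codes A4 and D11 at 6 days). A star marks the 13 genes past the threshold in the mean over both arms; the points of Il1r2 lie between 2.21 and 3.75 and those of Icam1 between -1.33 and -0.66.

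Promoter sequence was read for 32 of the 40 genes from RefSeq on GRCm38.p6, as the 250 bases before the annotated start. The kappaB consensus, the 10-base motif that NF-kB binds, was searched on both strands, with overlapping matches counted once per promoter. It was present before a start of 13 of the 32 genes (40.6%), against 8.23% of all 27025 genes with a promoter sequence, which are not the 18193 genes tested. The genes were listed for their part in NF-kB signalling, some as genes it induces. The excess therefore describes how the list was made and is no result of these arrays. Of the genes higher in EPZ4777 3 of 9 held it (Nfkbia, Ier3 and Tnfaip2), of those lower 2 of the 3 with a sequence (Nlrp3 and Sod2), and of the others 8 of 20. A match is a stretch of letters and not a measured binding site. The promoters below show a match in 3 genes that rose, in 1 that fell (Sod2) and in 1 that did not pass (Cxcl1, a neutrophil chemokine), and the promoter of the gene with the largest rise, Il1r2, which held no match. Capitals mark the match.
Nfkbia (chr12:55492648-55492897, - strand): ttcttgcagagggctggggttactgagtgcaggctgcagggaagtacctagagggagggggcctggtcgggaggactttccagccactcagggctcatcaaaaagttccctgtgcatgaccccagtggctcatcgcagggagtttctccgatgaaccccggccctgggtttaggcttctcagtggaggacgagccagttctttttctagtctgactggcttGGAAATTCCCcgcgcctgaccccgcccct
Tnfaip2 (chr12:111442411-111442660, + strand): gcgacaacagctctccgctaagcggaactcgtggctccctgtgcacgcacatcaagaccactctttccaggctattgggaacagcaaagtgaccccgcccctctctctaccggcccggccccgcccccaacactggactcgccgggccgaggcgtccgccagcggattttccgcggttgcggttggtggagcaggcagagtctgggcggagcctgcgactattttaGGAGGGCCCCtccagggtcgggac
Ier3 (chr17:35821463-35821712, + strand): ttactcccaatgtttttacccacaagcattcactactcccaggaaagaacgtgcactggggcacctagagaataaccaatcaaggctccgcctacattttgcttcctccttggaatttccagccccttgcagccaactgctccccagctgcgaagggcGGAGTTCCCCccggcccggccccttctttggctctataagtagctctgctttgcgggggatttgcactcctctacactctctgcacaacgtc
Sod2 (chr17:13007589-13007838, + strand): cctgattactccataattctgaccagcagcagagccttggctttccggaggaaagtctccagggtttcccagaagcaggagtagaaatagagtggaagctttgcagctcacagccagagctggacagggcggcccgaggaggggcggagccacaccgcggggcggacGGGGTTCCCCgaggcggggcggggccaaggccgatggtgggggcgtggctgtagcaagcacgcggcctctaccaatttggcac
Cxcl1 (chr5:90890995-90891244, + strand): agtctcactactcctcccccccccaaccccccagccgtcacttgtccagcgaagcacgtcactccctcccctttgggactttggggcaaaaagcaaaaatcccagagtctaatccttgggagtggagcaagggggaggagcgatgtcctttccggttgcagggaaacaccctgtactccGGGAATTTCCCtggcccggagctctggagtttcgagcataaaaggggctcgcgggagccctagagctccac
Il1r2 (chr1:40085843-40086092, + strand): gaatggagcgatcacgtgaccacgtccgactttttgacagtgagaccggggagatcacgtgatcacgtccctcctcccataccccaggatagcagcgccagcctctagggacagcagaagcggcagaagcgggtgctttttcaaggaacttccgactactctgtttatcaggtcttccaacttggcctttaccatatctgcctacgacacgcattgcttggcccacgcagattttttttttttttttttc
The last matched letter is base 20 before the start in Nfkbia and base 15 in Tnfaip2, whereas it is base 83 in Ier3, base 74 in Sod2 and base 61 in Cxcl1.

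Of the subunits, 4 were measured. In the mean over both arms 0 passed by limma, beside 10.9% of all genes, and 0 had an unadjusted p under 0.05, beside 4978 of the 18193 genes. Rela, the main activating subunit, stood at 9.48 and 9.38 in EPZ4777 and 9.49 and 9.45 in DMSO in cells labelled shSirt1, and at 9.54 and 9.85 in EPZ4777 and 9.45 and 9.52 in DMSO in shLUC cells. Its mean difference was 0.09 ± 0.09 (log2 ± SE, 4 arrays against 4, adjusted p = 0.599). Rel, the c-Rel subunit of blood cells, had 6.91 and 6.84 in EPZ4777 against 6.53 and 6.66 in DMSO in cells labelled shSirt1. In shLUC cells Rel had 6.02 and 6.82 in EPZ4777 against 7.11 and 7.52 in DMSO, so that the groups stood apart in both arms but in opposite directions. The share of all genes whose groups stand apart was not counted. Statements of overlap, here and below, therefore describe the arrays and add no support to a test. The shLUC difference of Rel was -0.89 ± 0.26 (limma adjusted p = 0.101), and it passed with the code as a block (adjusted p = 0.0336). In cells labelled shSirt1 it was 0.28 ± 0.26 (adjusted p = 0.634). Nfkb2, which gives the p52 subunit, and Relb, its partner in the alternative pathway, had mean differences of 0.04 ± 0.10 and 0.11 ± 0.15.

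Among 9 IkB proteins and feedback regulators, 2 rose in the mean over both arms, beside 4.88% of all genes, and 0 fell, beside 6.00%. With so few genes in a role, a count by role is a description. Nfkbia, which encodes the main IkB protein and is itself an NF-kB target, had 12.19 and 12.83 in EPZ4777 against 10.99 and 11.31 in DMSO in cells labelled shSirt1, and 12.30 and 12.94 in EPZ4777 against 11.24 and 11.51 in DMSO in shLUC cells. All 4 EPZ4777 arrays lay above all 4 DMSO arrays. The mean rise was 1.30 ± 0.20 (2.47-fold, limma adjusted p = 0.0171), and all 5 Nfkbia probe sets had this sign. Irak3, the kinase-dead IRAK-M that restrains Toll-like receptor signalling in myeloid cells, had 8.20 and 8.86 in EPZ4777 against 7.15 and 7.28 in DMSO in cells labelled shSirt1, and 7.95 and 8.50 in EPZ4777 against 7.18 and 7.36 in DMSO in shLUC cells. These groups did not overlap either, and the mean rise was 1.13 ± 0.18 (2.19-fold, adjusted p = 0.0183). Within single arms neither gene passed without the block, and both passed with it in each arm (adjusted p between 0.0231 and 0.0415).

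Tnfaip3, the ubiquitin-editing inhibitor A20, had 6.53 and 7.36 in EPZ4777 against 5.89 and 6.38 in DMSO in cells labelled shSirt1, and 6.71 and 6.86 in EPZ4777 against 6.44 and 6.90 in DMSO in shLUC cells. The shSirt1-labelled groups stood apart and the shLUC groups overlapped. Its mean difference of 0.46 ± 0.21 had a limma adjusted p of 0.216, and of 0.0359 with the code as a block. Nfkbiz, a nuclear IkB protein that helps induce a subset of NF-kB targets, showed the same arrangement, with 8.30 and 8.20 in EPZ4777 against 7.78 and 7.32 in DMSO in cells labelled shSirt1 and 7.68 and 8.42 in EPZ4777 against 7.62 and 8.37 in DMSO in shLUC cells. Its mean difference was 0.38 ± 0.23 (adjusted p = 0.342, and 0.0458 with the block), and 1 of its 3 probe sets had the other sign. Nfkbie, the IkB epsilon inhibitor, had 6.25 and 6.57 in EPZ4777 against 6.28 and 6.38 in DMSO in cells labelled shSirt1, which overlapped. In shLUC cells Nfkbie had 7.16 and 7.24 in EPZ4777 against 6.67 and 6.62 in DMSO, a difference of 0.55 ± 0.13 (adjusted p = 0.0649, and 0.0485 with the block). The other members of the group did not pass without the block or with it as a fixed term: Nfkbib (IkB beta, -0.33 ± 0.09), Tnip1 (an A20-binding partner, 0.13 ± 0.07), Zfp36 (tristetraprolin, which destabilises cytokine messages, -0.24 ± 0.16) and Socs3 (an inhibitor of IL-6 receptor signalling, -0.30 ± 0.16).

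Receptors and adaptors held 6 measured genes, of which 3 rose and 0 fell in the mean over both arms, beside 4.88% and 6.00% of all genes. Il1r2, a decoy that binds interleukin-1 without signalling, had 9.86 and 11.23 in EPZ4777 against 6.11 and 7.98 in DMSO in cells labelled shSirt1, and 10.57 and 11.55 in EPZ4777 against 8.36 and 8.71 in DMSO in shLUC cells. The lowest EPZ4777 array lay above the highest DMSO array. Its mean rise of 3.01 ± 0.48 (8.07-fold, limma adjusted p = 0.0185) was the largest of the 40 genes. In the single arms its differences were 3.50 ± 0.68 in cells labelled shSirt1 (adjusted p = 0.0990, and 0.0112 with the block) and 2.53 ± 0.68 in shLUC cells (adjusted p = 0.0858, and 0.0175 with the block).

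Tnfrsf1a, the widely expressed TNF receptor with a death domain, had 10.17 and 10.39 in EPZ4777 against 9.78 and 9.82 in DMSO in cells labelled shSirt1, and 10.57 and 10.81 in EPZ4777 against 9.73 and 10.03 in DMSO in shLUC cells. Tnfrsf1b, the TNF receptor of blood cells, had 8.90 and 8.86 in EPZ4777 against 8.47 and 8.51 in DMSO in cells labelled shSirt1, and 9.18 and 9.26 in EPZ4777 against 8.36 and 8.10 in DMSO in shLUC cells. For both receptors the 4 EPZ4777 arrays lay above the 4 DMSO arrays. The mean rises were 0.65 ± 0.11 (adjusted p = 0.0192) and 0.69 ± 0.08 (adjusted p = 0.0119). In shLUC cells both passed by themselves, with 0.81 ± 0.15 for Tnfrsf1a (adjusted p = 0.0405) and 0.99 ± 0.12 for Tnfrsf1b (adjusted p = 0.0250). The other Tnfrsf1b probe set, with a lower mean level of 5.96, rose by only 0.12 in shLUC cells and 0.13 in the mean over both arms. Cd40, Myd88 (the adaptor of interleukin-1 and Toll-like receptors) and Traf1 had mean differences between 0.03 and 0.14 and did not pass. Traf1 lay below the lower quartile of all probe sets on 6 of the 8 arrays.

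Both inflammasome genes had negative differences in all 4 codes. Nlrp3, the sensor, had 7.30 and 7.07 in EPZ4777 against 7.47 and 7.74 in DMSO in cells labelled shSirt1, and 7.24 and 7.30 in EPZ4777 against 7.81 and 8.04 in DMSO in shLUC cells. It fell by 0.54 on the log2 scale in the mean over both arms (SE 0.10, limma adjusted p = 0.0262), with no overlap between EPZ4777 and DMSO. Casp1, the caspase that cleaves pro-interleukin-1 beta, had 8.96 and 8.71 in EPZ4777 against 9.49 and 9.01 in DMSO in cells labelled shSirt1, and 9.29 and 9.37 in EPZ4777 against 9.49 and 9.70 in DMSO in shLUC cells. The groups stood apart within each arm. The mean difference was -0.34 ± 0.13, with an adjusted p of 0.140, and of 0.0449 with the code as a block.

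Of 8 cytokines and antagonists, 2 rose and 1 fell in the mean over both arms, beside 4.88% and 6.00% of all genes. Il1rn, the secreted interleukin-1 receptor antagonist, had 7.69 and 8.74 in EPZ4777 against 5.18 and 6.35 in DMSO in cells labelled shSirt1, and 7.90 and 9.15 in EPZ4777 against 6.46 and 7.07 in DMSO in shLUC cells. EPZ4777 and DMSO did not overlap, the mean rise was 2.11 ± 0.40 (4.31-fold, limma adjusted p = 0.0259), and all 3 probe sets had this sign. Il1b, the cytokine that this antagonist blocks at the receptor, had 5.26 and 5.44 in EPZ4777 against 5.07 and 5.13 in DMSO in cells labelled shSirt1, and 6.05 and 5.90 in EPZ4777 against 5.27 and 5.55 in DMSO in shLUC cells. The groups stood apart within each arm, and the mean rise of 0.41 ± 0.10 (1.33-fold, adjusted p = 0.0410) was smaller than that of Il1rn and was not tested against it.

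Osm, oncostatin M of the IL-6 family, had 9.42 and 9.21 in EPZ4777 against 9.47 and 9.06 in DMSO in cells labelled shSirt1, which overlapped. In shLUC cells Osm had 8.12 and 7.81 in EPZ4777 against 9.30 and 9.27 in DMSO, a fall by 1.32 on the log2 scale (SE 0.18, limma adjusted p = 0.0285). The mean over both arms was -0.63 ± 0.12 (adjusted p = 0.0282). Il18, a precursor cut by caspase-1, had 5.88 and 6.60 in EPZ4777 against 5.29 and 6.24 in DMSO in cells labelled shSirt1, and 7.64 and 8.19 in EPZ4777 against 6.68 and 7.03 in DMSO in shLUC cells. Only the shLUC groups of Il18 stood apart, and the mean difference of 0.77 ± 0.27 had an adjusted p of 0.114, and of 0.0107 with the code as a block. Tnf, the pathway's best known inducer, had 6.63 and 6.89 in EPZ4777 against 6.19 and 6.54 in DMSO in cells labelled shSirt1, and 6.67 and 6.91 in EPZ4777 against 6.54 and 6.59 in DMSO in shLUC cells. Its mean difference was 0.31 ± 0.11 (adjusted p = 0.133, and 0.0486 with the block). Il6 and Il10 lay below the lower quartile of all probe sets (3.78) on all 8 arrays, with Il6 between 2.51 and 3.06, in cells that were given IL-6 protein. Il1a lay below that quartile on 7 of the 8 arrays. Il6, Il10 and Il1a did not pass.

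The 4 chemokines, Cxcl1, Cxcl2, Ccl4 and Ccl5, did not pass in any comparison. Ccl4, a macrophage inflammatory protein, had 7.43 and 7.38 in EPZ4777 against 7.12 and 7.17 in DMSO in cells labelled shSirt1, and 7.55 and 7.61 in EPZ4777 against 7.94 and 7.81 in DMSO in shLUC cells. The 2 arms differed in direction, with 0.26 ± 0.10 (limma adjusted p = 0.287) and -0.30 ± 0.10 (adjusted p = 0.148). Cxcl2, a neutrophil attractant, had 7.77 and 7.16 in EPZ4777 against 5.82 and 7.20 in DMSO in cells labelled shSirt1, where the low value was that of the A1 DMSO array with the stroma signal. In shLUC cells Cxcl2 had 7.45 and 7.10 in EPZ4777 against 7.26 and 8.02 in DMSO, and the groups overlapped in both arms.

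Of 7 surface, survival and other induced genes, 2 rose and 2 fell in the mean over both arms, beside 4.88% and 6.00% of all genes. Tnfaip2, a TNF-induced gene, had 11.09 and 11.33 in EPZ4777 against 10.45 and 10.49 in DMSO in cells labelled shSirt1, and 11.34 and 11.65 in EPZ4777 against 10.57 and 10.71 in DMSO in shLUC cells. Ier3, an immediate early gene that affects survival, had 11.56 and 11.44 in EPZ4777 against 10.98 and 10.82 in DMSO in cells labelled shSirt1, and 11.42 and 11.26 in EPZ4777 against 10.89 and 11.12 in DMSO in shLUC cells. In both genes every EPZ4777 array lay above every DMSO array, with mean rises of 0.80 ± 0.10 for Tnfaip2 (limma adjusted p = 0.0129) and 0.47 ± 0.09 for Ier3 (adjusted p = 0.0286). Of the 3 Tnfaip2 probe sets, another had a mean rise of 0.77, and the lowest (mean level 5.10) had only 0.15.

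Sod2, a mitochondrial antioxidant enzyme induced by NF-kB in many cells, had 11.14 and 10.99 in EPZ4777 against 11.62 and 11.58 in DMSO in cells labelled shSirt1, and 11.28 and 11.02 in EPZ4777 against 11.52 and 11.72 in DMSO in shLUC cells. It fell by 0.50 on the log2 scale (SE 0.09, limma adjusted p = 0.0256), with no overlap and with all 4 probe sets of the same sign. The lowest of these probe sets had a mean difference of only -0.08. Icam1, the adhesion molecule that binds leukocyte integrins, had 5.57 and 6.41 in EPZ4777 against 6.90 and 7.32 in DMSO in cells labelled shSirt1, and 7.02 and 6.93 in EPZ4777 against 7.68 and 7.80 in DMSO in shLUC cells. The groups stood apart within each arm, and Icam1 fell by 0.94 (SE 0.19, adjusted p = 0.0299). Cd83, Birc3 (the apoptosis inhibitor cIAP2) and Junb (an AP-1 subunit) had mean differences of 0.27 ± 0.09, 0.19 ± 0.10 and -0.14 ± 0.14 and did not pass. Cd83 lay below the lower quartile of all probe sets on 3 of the 8 arrays.

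**Figure D2:**
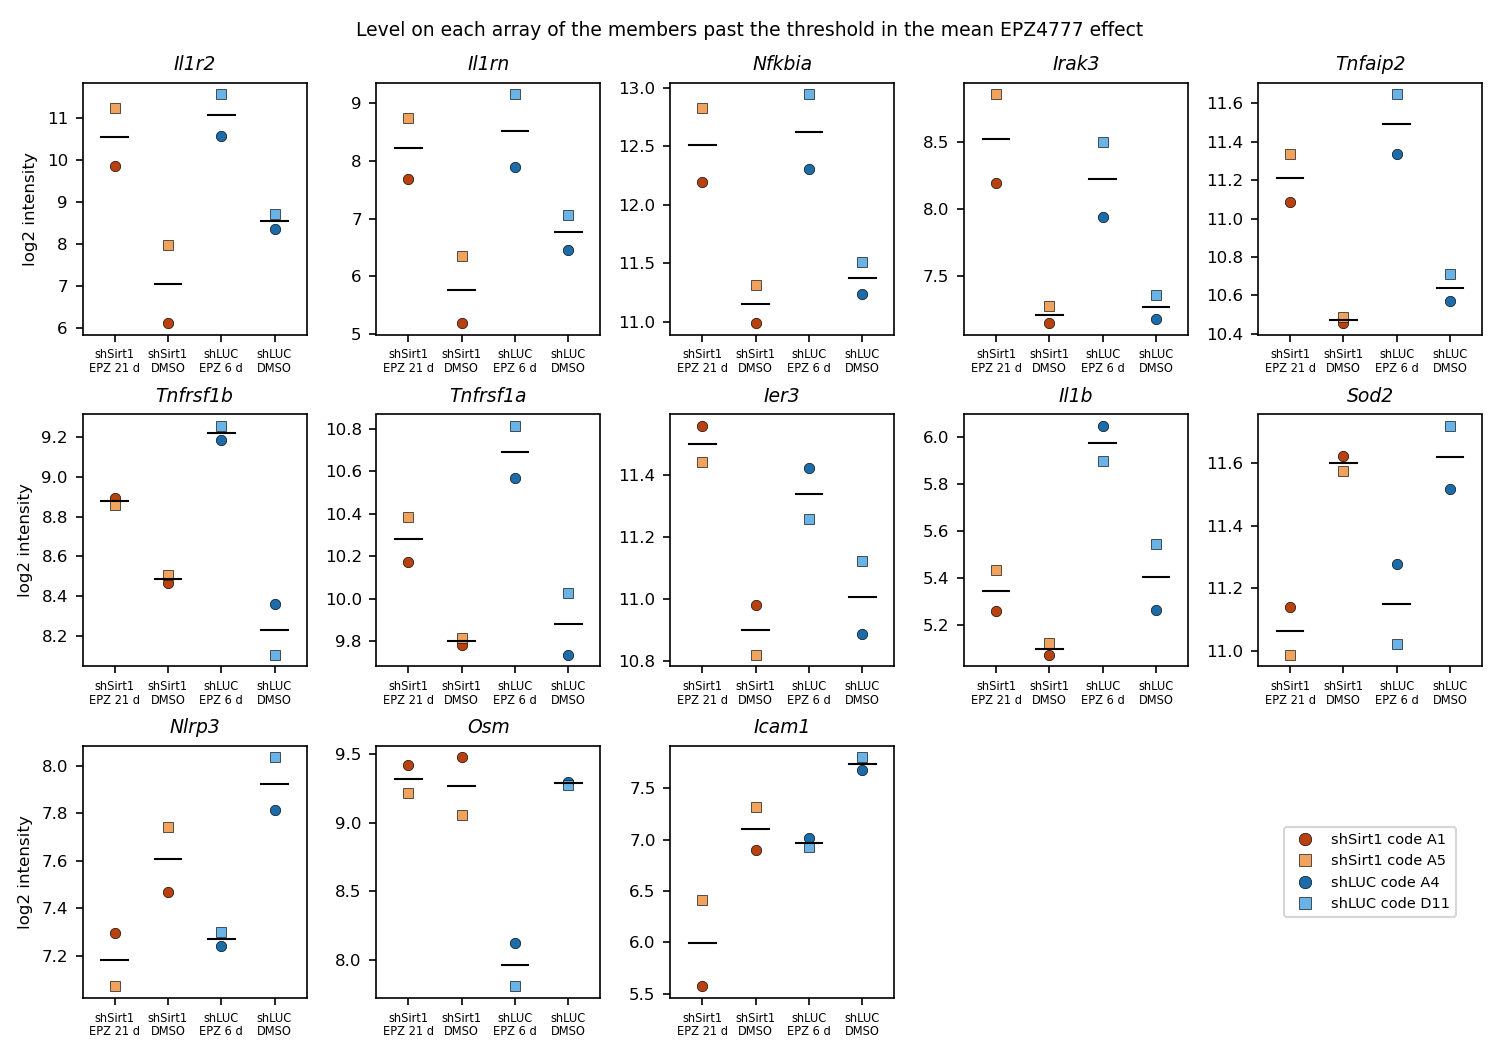
Log2 intensity on each array of the 13 genes past the threshold in the mean over both arms, with EPZ4777 left of DMSO in cells labelled shSirt1 and then in shLUC cells; points are arrays, shapes and colours are codes, and the bar is the mean of 2 arrays. The vertical axis of each panel has its own range. Osm is the one panel where the shSirt1-labelled groups overlap, at 9.42 and 9.21 in EPZ4777 against 9.47 and 9.06 in DMSO.

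Within a single hairpin arm fewer genes passed. In cells labelled shSirt1, 0 of the 40 passed in limma, beside 0.396% of all genes, and 16 had an unadjusted p under 0.05, beside 2876 of the 18193 genes. The smallest adjusted p was that of Irak3 (1.31 ± 0.26, adjusted p = 0.0974). With the code as a block 6 passed, beside 2.22% of all genes: Nfkbia, Irak3, Il1r2, Il1rn and Tnfaip2 were higher and Icam1 lower in EPZ4777. Leaving out both A5 arrays gave 2, and leaving out the A5 DMSO array gave 1. In shLUC cells 4 of the 40 passed, beside 3.98% of all genes: Tnfrsf1a, Tnfrsf1b and Tnfaip2 (0.85 ± 0.15, adjusted p = 0.0371) were higher and Osm was lower. With the block 12 passed in shLUC cells, beside 7.23% of all genes, 9 higher (Nfkbia, Nfkbie, Irak3, Tnfrsf1a, Tnfrsf1b, Il1r2, Il1rn, Il18 and Tnfaip2) and 3 lower (Rel, Osm and Icam1). The unblocked shLUC count was 0 without the A4 DMSO, the D11 DMSO or the D11 EPZ4777 array, and 2 without the A1 or the A5 DMSO array.

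Whether EPZ4777 acted differently in the arms was tested as the difference of the effects, shSirt1 minus shLUC, in which the hairpin label and the 21 against 6 days cannot be told apart. None of the 40 genes passed (0 called, beside 0% of all genes), and 7 had an unadjusted p under 0.05, beside 1221 of the 18193 genes. The smallest limma adjusted p was that of Osm (1.37 ± 0.25, adjusted p = 0.456). With the block 0 of the 40 passed as well, beside 0.0165% of all genes. Rel (1.17 ± 0.37), Ccl4 (0.56 ± 0.14), Socs3 (-0.96 ± 0.31) and Tnfrsf1b (-0.60 ± 0.17) were among the 7, with adjusted p between 0.591 and 0.638. In 5 of the 40 genes (Rel, Rela, Cd40, Ccl4 and Junb) both codes of one arm lay on one side of 0 and both codes of the other on the opposite side. The share of all genes with this arrangement was not counted, so the 5 genes are a description and not a result about them.

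**Figure D3:**
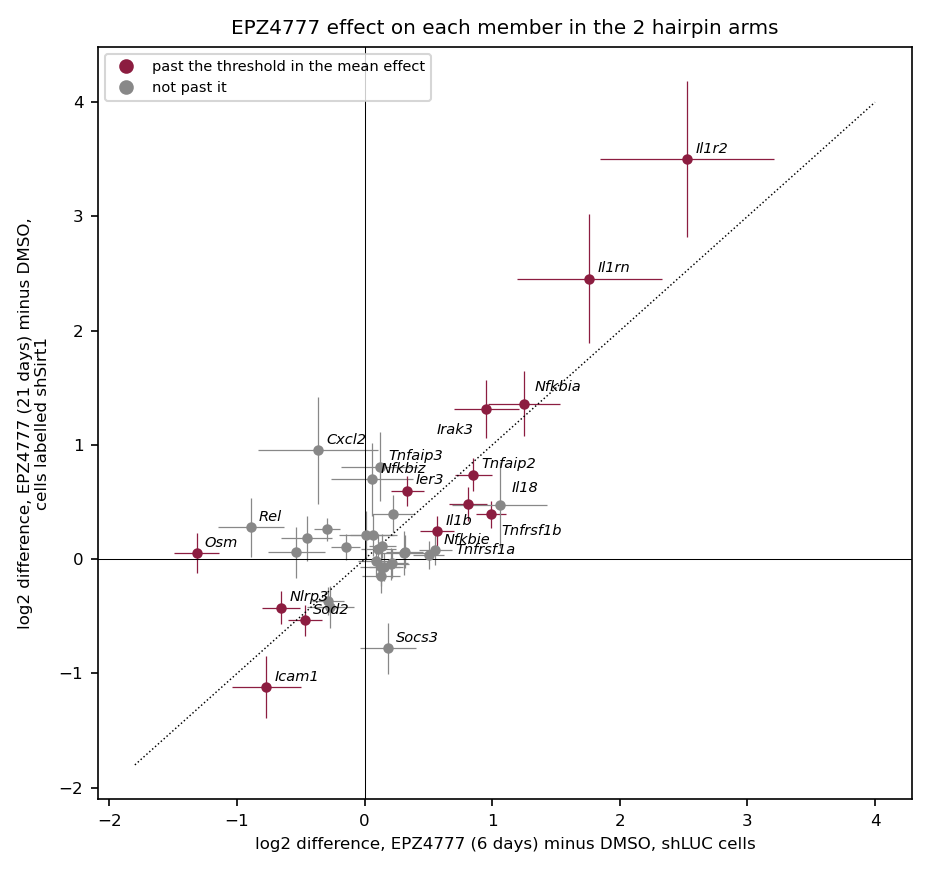
The log2 difference, EPZ4777 minus DMSO, of each of the 40 genes in cells labelled shSirt1 (21 days, vertical axis) against shLUC cells (6 days, horizontal axis), with standard errors as bars; the dotted line marks equal differences. Red points passed in the mean over both arms. Il1r2 lies farthest out at 3.50 and 2.53, and Osm lies near 0 on the vertical axis (0.05) and at -1.32 on the horizontal one.

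The labels were also compared with each other. In EPZ4777, cells labelled shSirt1 at 21 days against shLUC cells at 6 days, 1 of the 40 genes passed in limma, beside 0.308% of all genes. It was Osm, higher by 1.35 ± 0.18 (2.55-fold, adjusted p = 0.0421) in cells labelled shSirt1. The call was lost without the A4 DMSO, A4 EPZ4777, D11 DMSO, D11 EPZ4777, A1 EPZ4777 or A5 EPZ4777 array, without both A1 arrays, and when only the 4 arrays compared were fitted (0 called in each), and without both A5 arrays the 1 gene called was Icam1. Il18 (-1.67 ± 0.38, adjusted p = 0.131), Icam1 (-0.98 ± 0.27, adjusted p = 0.188) and Nfkbie (-0.79 ± 0.13, adjusted p = 0.0771) had the most negative differences among genes that did not pass, beside Socs3 (-1.03 ± 0.22, adjusted p = 0.120). In DMSO 0 of the 40 passed, beside 0% of all genes, and 6 had an unadjusted p under 0.05, beside 985 of the 18193 genes. The difference in DMSO was negative for 32 of the 40, beside 9663 of the 18193 genes, with a median of -0.17 against -0.01 over all genes. Ccl4 had the smallest unadjusted p there, at -0.73 ± 0.10 (adjusted p = 0.796), and the Il1r2 difference was -1.49 ± 0.68 (adjusted p = 0.882), with the A1 array at 6.11 and the A5 array at 7.98 against 8.36 and 8.71 in shLUC cells.

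Other genes of the pathway were counted on lists by function, in the mean over both arms, where 4.88% of all genes rose and 6.00% fell (10.9% in all). Of 23 kinases and adaptors upstream of NF-kB, 3 rose and 0 fell, a share that is near the 10.9% of all genes called in both directions together. The 3 were Map3k8, the kinase TPL2 (1.15 ± 0.18), Nod1, a sensor of bacterial wall fragments (1.10 ± 0.19), and Ikbke, an IKK-related kinase (0.69 ± 0.10). Of 20 further brakes on NF-kB, 2 rose and 4 fell. N4bp1 (0.66 ± 0.09) and Pdlim2 (0.66 ± 0.15) were higher, and Zc3h12c, a relative of the RNase regnase-1 (-1.13 ± 0.25), Tax1bp1, an A20 adaptor (-0.56 ± 0.08), Tnip2 (-0.48 ± 0.11) and the deubiquitinase Otulin (-0.39 ± 0.08) were lower. Of 44 other inflammatory cytokines, chemokines and effectors, 12 rose and 1 fell. Il15, a cytokine for lymphocytes, rose by 1.50 ± 0.08 (limma adjusted p = 0.00297) and passed in both arms alone. Ltb (lymphotoxin beta, 1.77 ± 0.39), Tnfsf13b (the B-cell factor BAFF, 1.59 ± 0.16), and the chemokines Ccl6 (1.72 ± 0.34) and Cxcl10 (1.03 ± 0.18) also rose. The chemokine Ccl7 passed in the mean (1.27 ± 0.29) and in shLUC cells (2.40 ± 0.41, adjusted p = 0.0362), with differences of 0.31 and -0.01 within A1 and A5. In EPZ4777 it was lower in cells labelled shSirt1 than in shLUC cells (-3.16 ± 0.41, adjusted p = 0.0411). The other 6 that rose were Marcksl1 (1.48 ± 0.17), Plau (0.92 ± 0.16), Cd80 (0.86 ± 0.16), Gadd45b (0.48 ± 0.08), Cflar (0.47 ± 0.09) and Bcl2l1 (0.45 ± 0.08). The chemokine Ccl9 fell (-1.05 ± 0.14).

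Immediate early genes, which mitogens and stress induce within minutes, numbered 27, of which 6 rose and 0 fell in the mean over both arms, beside 4.88% and 6.00% of all genes. They were Fos (1.22 ± 0.18), Btg2 (0.90 ± 0.10), Ier5 (0.81 ± 0.14), Dusp1 (0.67 ± 0.13), Fosb (0.65 ± 0.15) and Dusp6 (0.61 ± 0.13). With the code as a block Fosb did not pass (adjusted p = 0.0524). Dusp2, a phosphatase of MAP kinases, was called in shLUC cells, where it fell by 1.04 (SE 0.15, limma adjusted p = 0.0298), with differences of 0.51 and 0.30 within A1 and A5. Of 27 receptors and signalling genes for the IL-1, IL-6, IL-10, IL-18 and OSM families, 4 rose and 2 fell. Il1rl2, the IL-36 receptor (1.86 ± 0.26), Il18rap, a chain of the IL-18 receptor (1.40 ± 0.12), Jak2 (0.85 ± 0.13) and Il1r1, the signalling IL-1 receptor (0.64 ± 0.09), were higher. Il6st, the gp130 chain that OSM and IL-6 share, was lower (-1.71 ± 0.19, adjusted p = 0.00999), and so was Stat5a (-0.31 ± 0.08), which did not pass with the block (adjusted p = 0.0524). Of 15 further inflammasome genes 2 rose (Nlrp12, 0.74 ± 0.17, and Naip2, 0.36 ± 0.09) and 1 fell (Nlrp10, -1.49 ± 0.27).

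Markers of myeloid maturation differed between the same arrays. Of 12 neutrophil maturation markers 8 rose and 0 fell in the mean over both arms, beside 4.88% and 6.00% of all genes. With the block 11 of the markers rose, beside 1363 of the 18193 genes, and none of the markers lay below the lower quartile on all arrays. Their mean log2 level was 10.37 and 12.02 in EPZ4777 against 7.58 and 8.95 in DMSO in cells labelled shSirt1, and 10.50 and 12.01 in EPZ4777 against 8.81 and 9.28 in DMSO in shLUC cells. Il1r2 and Il1rn were lowest on the A1 DMSO array, where these markers were lowest too, and highest on the D11 EPZ4777 array, whereas the markers were as high on the A5 as on the D11 EPZ4777 array. Of 12 macrophage markers 0 rose in cells labelled shSirt1, beside 39 of the 18193 genes, and 6 rose in shLUC cells, beside 295 of the 18193 genes. In the difference of the effects 0 of the 12 passed by limma, beside 0% of all genes, and 1 with the block, beside 0.0165%. An unadjusted p under 0.05 was held by 6 of the 12, beside 1221 of the 18193 genes. These markers had a mean level of 5.09 and 5.54 in EPZ4777 against 5.19 and 5.59 in DMSO in cells labelled shSirt1, and 7.38 and 8.04 in EPZ4777 against 6.03 and 6.38 in DMSO in shLUC cells. Il18 and Il1b were highest on those same shLUC EPZ4777 arrays. Of 7 monocyte markers 3 fell in the mean over both arms, beside 6.00% of all genes. Their mean level was 7.27 and 6.74 in EPZ4777 against 8.31 and 8.66 in DMSO in cells labelled shSirt1. In shLUC cells it was 8.44 and 8.14 in EPZ4777 against 9.35 and 9.32 in DMSO. The part of these markers in the results above was not tested.

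**Figure D4:**
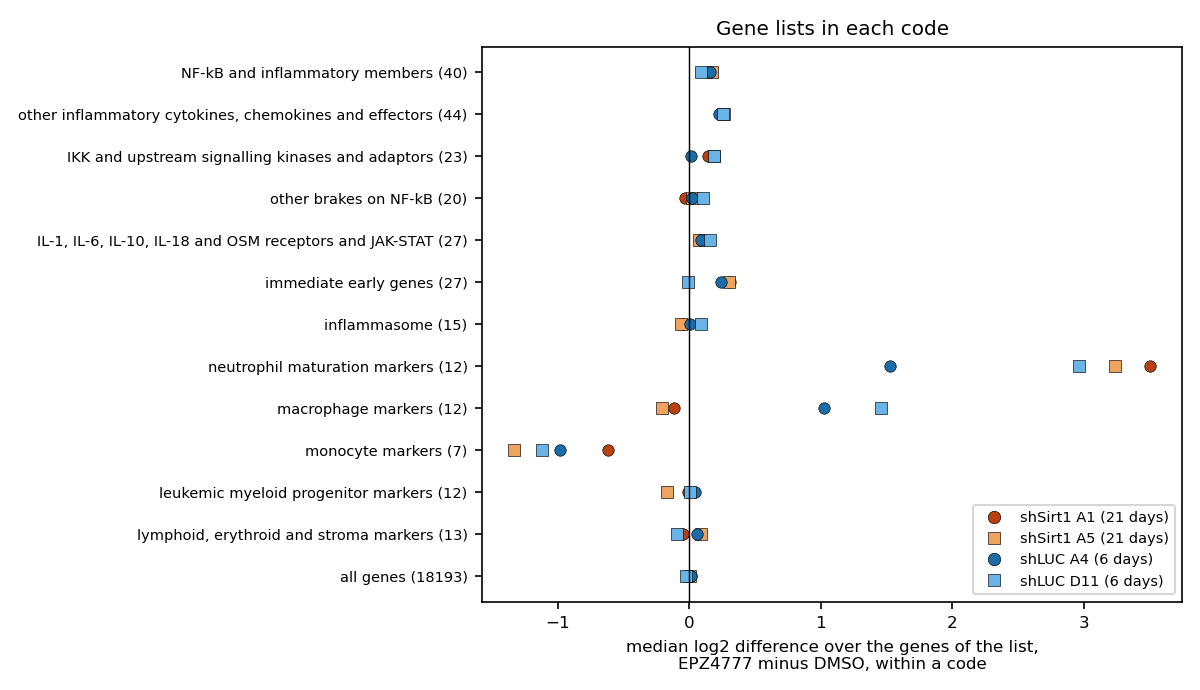
The median log2 difference, EPZ4777 minus DMSO, over the genes of each list within each of the 4 codes, with the number of genes measured in brackets. The median over the 40 genes lies between 0.09 and 0.17 in the 4 codes, that of the neutrophil markers between 1.53 and 3.50, and that of all genes between -0.02 and 0.01.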

How the data were processed

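Total RNA of 8 cell samples was hybridised to Affymetrix arrays, 2 per group. Per the submitters' processing notes, RMA produced the intensity values the authors deposited; its version, chip definition and any joint run over all arrays remain not given in the sources used here. Here log2 was taken of the deposited linear intensities, with no pseudocount or further normalization. Of 45101 probe sets, 64 were controls, 34945 had 1 gene symbol in the platform's annotation, 932 had several and 9160 were unnamed there; 18193 genes remained after the probe set of highest mean was kept for each. The number of arrays limits the precision.

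The test was limma (version 3.58.1, under R version 4.3.3 with version 1.17.8 of the data.table package) on the 4 group means over all 8 arrays (4 residual degrees of freedom), two-sided, with Benjamini-Hochberg adjustment over the 18193 genes and a threshold of 0.05. With 2 arrays per group the smallest p of an exact permutation test is 0.333. The report gives 6 comparisons. Samples were grouped by their titles. The block uses the code that an EPZ4777 and a DMSO title share (2 residual degrees of freedom); as a check, the departures of the arrays from their group means were correlated over genes between the EPZ4777 and DMSO arrays of a code, at 0.38 in cells labelled shSirt1 and 0.29 in shLUC cells, 1 value per arm. The fits were tested on simulated data with independent noise on each array and no effect of a code. Those data do not bear on the choice between the fits with and without the block. Every listed gene is accounted for; values per array are given for genes that passed in either fit, for those with 4 code differences of one sign and at least 0.5 log2, and for the highest gene of each role; Cxcl2 was added after its values were seen. Genes of the pathway lists are named where they passed. Of the marker lists, Itgam and Meis1, which passed, and Ptprc, Mpo, Cd34 and Kit, which check the labelled cells, are named. Kit and the stroma genes Col1a1, Col1a2, Col3a1 and Dcn were named after their values were seen. The members, roles and lists were chosen with earlier results of these data known. Promoters came from RefSeq and were searched in Python 3.11.15 (pandas 2.3.3, matplotlib 3.10.9). Alternatives were other probe set choices, normalizations, filters, thresholds, blocks and arrays left out.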

Additional observations from a re-analysis of the deposited data

How the results depend on the processing

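The counts of the 40 genes past the threshold, by limma, moved with the block, the threshold and the arrays entered, and the cause was not tested. Among the alternatives, the share of all genes called is given in the report only for the fixed block. For the other alternatives a change of a count cannot be told apart here from a change in all genes. For EPZ4777 against DMSO in cells labelled shSirt1 the count was 0; it was 6 with the code as a fixed replicate block, 7 as a random block (Ier3 added to the 6), 2 at an adjusted p under 0.10, 2 without both A5 arrays, and between 0 and 1 with each array left out. In shLUC cells the count was 4; it was 12 with the fixed block, 15 with the random block (Cd83, Il1b, Nlrp3 and Sod2 added to those of the fixed block, Icam1 lacking), 12 at the looser threshold, 7 without genes below the median level (fewer genes tested), and between 0 and 5 with each array left out. For the mean over both arms the count was 13; it was 18 with either block (the random one added Cd83, Nfkbib and Nfkbie and lacked Casp1, Nfkbiz and Tnfaip3), 8 without both A1 arrays, 2 without both A5 arrays, and between 0 and 13 with each array left out. Between the labels in EPZ4777 the count was 1; it was 0 in a fit of only the arrays compared, 0 without both A1 arrays, 2 at the looser threshold, and between 0 and 1 with each array left out. For the difference of the effects and for DMSO it was 0 throughout. Of the genes called in the mean over both arms, the call was lost in 3 of 18 alternatives for Nfkbia, Tnfrsf1b and Tnfaip2, in 4 for Irak3, Il1r2 and Icam1, in 6 for Tnfrsf1a, Il1rn and Nlrp3, in 7 for Osm, in 9 for Ier3 and Sod2, and in 12 of 17 for Il1b. No call changed direction. Where an array was left out, the lone array of its group was taken to vary like the other groups. The alternatives without a code were chosen after seeing the data. The fixed block could not be fitted to comparisons between labels, and levels near the floor of RMA understate differences. Among the 40 genes neither block changed a call other than those named here and in the report.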
